A study of Homo sapiens with 192 samples.

Results

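The genes described here are 10 noncoding snoRNA host genes, GAS5, SNHG1, SNHG5, SNHG6, SNHG7, SNHG8, SNHG12, SNHG15, SNHG16 and ZFAS1. They were chosen by name as long noncoding RNA genes whose introns carry small nucleolar RNAs (snoRNAs), with earlier results of these data known. Each was found by its Ensembl identifier among the 58243 genes counted in every library. All 10 passed the filter on low counts, as did 19387 genes in all.

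The study compared gene expression in CRC cell lines grown in 2D and in 3D. The 4 lines were HT29, LS513, HCT116 and LS174T, all established from human colorectal tumours, and none carried an added gene, a deletion or a treatment according to the labels. HT29 and LS513 are described by the study as microsatellite stable and HCT116 and LS174T as microsatellite instable. The study kept HCT116 in McCoy medium and the other lines in DMEM. A difference of HCT116 from the other lines therefore cannot be told apart from one of medium. Each line gave 3 libraries in 2D and 3 in 3D, which makes 8 groups and 24 libraries of poly(A)-selected RNA. Growth in 3D means spheroids in the study's text, and a spheroid of a tumour line holds no stroma or immune cells of its own. The labels do not say that the 3 libraries of a group came from separate cultures, so p-values measure the spread between these libraries, which may be technical. Bulk RNA cannot tell fewer cells that express a gene from less RNA per cell.

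In a noncoding host gene the exons are spliced together and exported, and the introns are trimmed to snoRNAs that guide the chemical modification of ribosomal RNA. C/D snoRNAs guide 2′-O-methylation and H/ACA snoRNAs guide pseudouridylation. Many host genes begin, like the genes of ribosomal proteins and translation factors, with a C followed by an unbroken run of C and T, the 5′ terminal oligopyrimidine (TOP) motif, which links translation to mTOR signalling through LARP1. Their spliced RNAs have only short reading frames, and several, GAS5 first among them, are known targets of nonsense-mediated decay, the pathway that destroys RNAs with early stop codons.

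The start sites are shown because a shared type of start with ribosomal protein genes is the background on which these hosts are usually grouped. RefSeq promoters on GRCh38.p14 matched 8 of the 10 genes, and SNHG6 and SNHG15 had no entry. In each line below, 40 bases lie before the annotated start and 20 bases run from it, 5′ to 3′ on the strand of the gene, and capitals mark the longest unbroken run of C and T within 20 bases either side of the start. The ribosomal protein genes RPLP0 and RPS3 are given for comparison, with 20 bases before the start and 10 from it.
ZFAS1, chr20:49278602-49278661, plus strand: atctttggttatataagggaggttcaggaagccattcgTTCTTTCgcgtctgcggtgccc
SNHG5, chr6:85678714-85678773, minus strand: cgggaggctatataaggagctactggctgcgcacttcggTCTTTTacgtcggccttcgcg
SNHG8, chr4:118278722-118278781, plus strand: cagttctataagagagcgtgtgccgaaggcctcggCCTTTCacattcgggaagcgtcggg
SNHG7, chr9:136728165-136728224, minus strand: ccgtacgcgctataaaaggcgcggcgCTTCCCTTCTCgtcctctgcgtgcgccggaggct
SNHG12, chr1:28581854-28581913, minus strand: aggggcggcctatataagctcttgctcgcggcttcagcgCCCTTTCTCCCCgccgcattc
SNHG1, chr11:62855866-62855925, minus strand: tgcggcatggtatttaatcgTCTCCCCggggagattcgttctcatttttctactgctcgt
GAS5, chr1:173869026-173869085, minus strand: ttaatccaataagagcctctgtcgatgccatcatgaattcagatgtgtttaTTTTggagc
SNHG16, chr17:76557724-76557783, plus strand: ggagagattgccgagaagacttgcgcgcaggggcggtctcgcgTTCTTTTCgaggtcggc
RPLP0, chr12:120201102-120201131, minus strand: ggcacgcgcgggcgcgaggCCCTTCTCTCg
RPS3, chr11:75399498-75399527, plus strand: cttccgcccgcgagccaCTTCCTTTCCTTT

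The annotated start was a C in 6 of these 8 host genes (75.0%), and the same 6 had a run of at least 5 C or T across the start. A C stood at the start of 47 of 63 ribosomal protein genes with an entry (74.6%), of 4 of 13 other noncoding hosts (30.8%) and of 15.0% of all 27305 promoters. A run of at least 5 C or T across the start was held by 71.4% of the ribosomal protein genes, 30.8% of the other noncoding hosts and 9.80% of all promoters. Such a run may begin before the start, so it is a wider class than the TOP motif, which begins at the start. In SNHG8 the run of 6 bases began 5 bases before the start and ended at it. That of SNHG1 also began before the start. SNHG12 had the longest run across its start, 12 bases, and the median was 6 bases over the host genes and 11 over the ribosomal protein genes. A run of at least 7 C or T within 20 bases of the start was held by 62.5% of these host genes and 87.3% of ribosomal protein genes. The share was 61.5% for the other noncoding hosts and 25.8% for all promoters. GAS5 started at an A and SNHG16 at a G in the RefSeq annotation, and both starts lie upstream of the GENCODE 29 gene. The GAS5 start shown is chr1:173869045 on the minus strand, where the GENCODE 29 gene begins at 173868882. The SNHG16 start shown is chr17:76557764 on the plus strand, where the GENCODE 29 gene begins at 76557766. For SNHG12 and ZFAS1 the start used here is not the outermost start of the RefSeq gene. An annotated start is 1 of several a gene can use (GENCODE 29 lists 17 transcript starts for GAS5 and 2 for SNHG7), so these letters describe the annotation and not the starts used in these cells.

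Library totals ran from 18723942 to 34277421 counts with a median of 30777613.5, so that 3 counts, taken as the limit of detection, equal 0.0875 to 0.160 CPM (counts per 1000000 counts of the library). The lowest count of any host gene in any library was 239, for SNHG5 in HT29, and these limits cover counting error only. A pair of libraries stood apart by their small nuclear RNA. HT29 2D replicate 3 held 461 CPM of it against 11.2 and 12.1 in the other two libraries of its group, and had the lowest total. LS174T 3D replicate 2 held 82.7 CPM against 9.26 and 10.04, and had the highest sum of ribosomal protein genes of all libraries, 127824 CPM. Calls of host genes that changed without them are given both ways, and so are some of the other values. The 10 epithelial markers summed to 2874 to 17314 CPM, while 12 markers of blood, vessel and connective tissue summed to 2.47 to 93.2 CPM. Of the epithelial markers 5 averaged over 1 CPM in HCT116 2D and 6 in HCT116 3D, against 9 to 10 in the other groups. The lowest library values were 0 for CDX1 and CDH17, 0.133 CPM for VIL1 and 0.0906 CPM for LGALS4, while KRT8 was at least 1103 CPM. The sum of the markers of other cell types was higher in 3D than in 2D in every line, and its part in the results was not tested. The highest single levels among them were those of CD68 (up to 91.8 CPM), COL1A1 (up to 21.8 CPM) and CD14 (up to 15.1 CPM). CD3E of T cells and COL1A2 of fibroblasts were at 0 in all libraries and PTPRC of blood cells was at most 0.0688 CPM.

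Levels of a gene are in CPM after TMM scaling, which corrects for library composition, and levels are compared between genes only per kilobase of exon (RPKM). ZFAS1 had the highest RPKM of the 10 in HT29 and LS513 in both growth conditions and in HCT116 and LS174T in 3D, up to 106.6 ± 8.46 (SD, n = 3) in HT29 3D. SNHG6 led in HCT116 2D with 57.1 ± 10.9 RPKM and GAS5 in LS174T 2D with 41.3 ± 3.84 RPKM. SNHG12 was the lowest in 7 of 8 groups, between 3.22 and 8.83 RPKM, and SNHG5 was lower still in HT29 2D, with 4.60 ± 0.249 RPKM. The annotated exons of SNHG1, SNHG12 and SNHG15 cover 95.6%, 92.8% and 92.6% of the gene, introns included in some transcripts, against 12.8% for ZFAS1 and 15.8% for SNHG5. Reads from introns therefore enter the counts of the former genes, and RPKM divides those counts by a longer length.

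**Figure D1:**
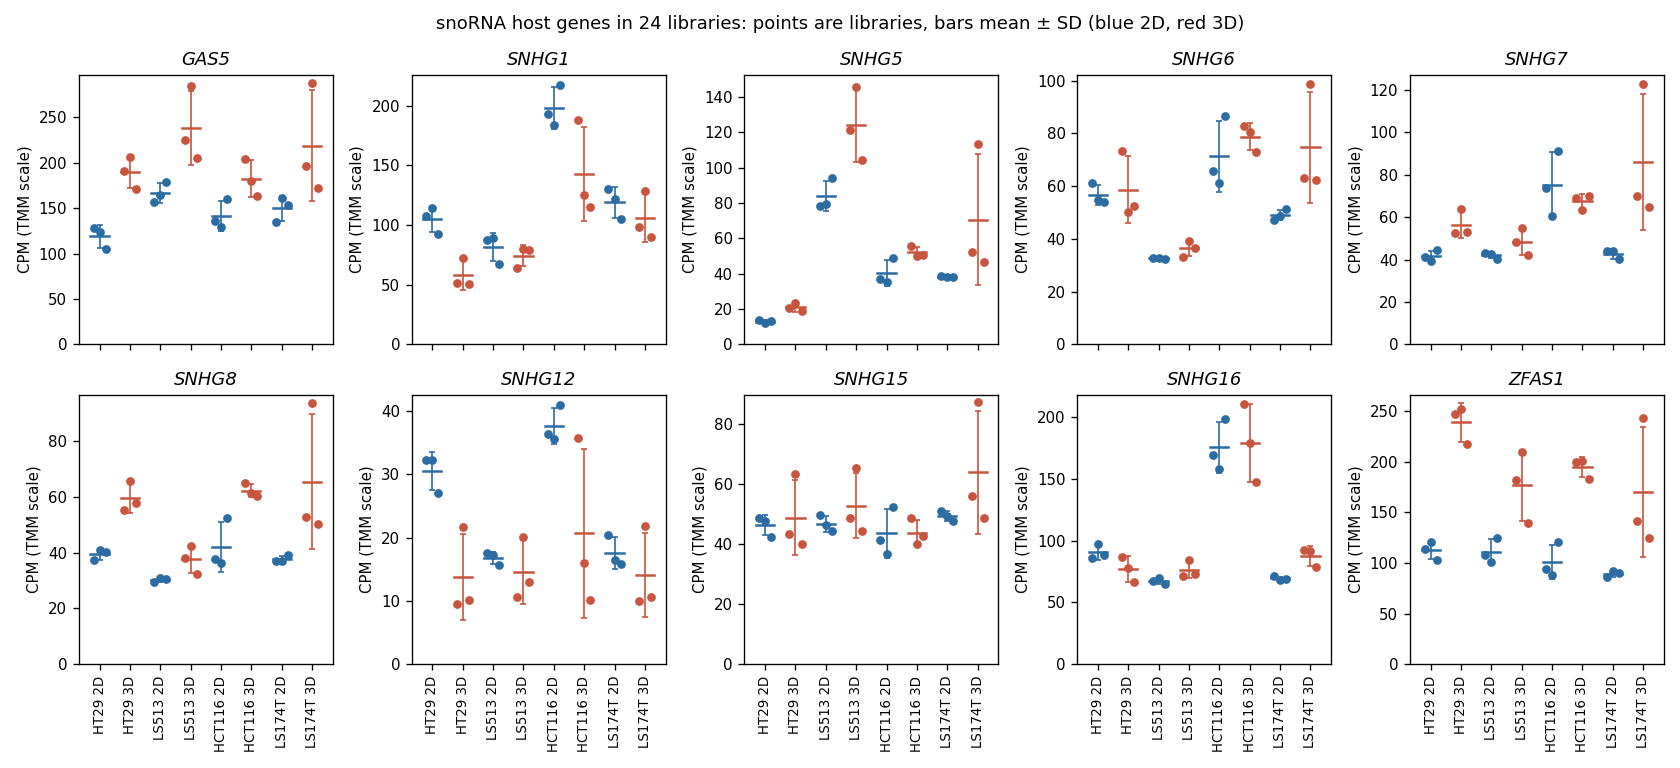
Level of each snoRNA host gene in CPM on the TMM scale (vertical axes, each from 0) in the 8 groups of line and growth condition. Points are libraries, horizontal bars are means and whiskers are SD (n = 3); the 3D points (red) of ZFAS1, GAS5, SNHG5 and SNHG8 lie above the 2D points (blue) in each line, and SNHG5 is lowest in HT29, with 12.1 to 23.4 CPM.

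The lines were first compared with each other. In 2D the level differed between the 4 lines for 7 of 10 host genes, and in 3D for 7 of 10, by edgeR's quasi-likelihood test with Benjamini-Hochberg adjustment at an adjusted p of 0.05. Lines differ widely, since 91.7% of all tested genes passed the same test in 2D and 91.7% in 3D. The counts of host genes therefore do not stand above the background.

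SNHG5, which carries the SNORD50 snoRNAs, had the widest spread between lines. In 2D it gave 13.5, 12.1 and 13.1 CPM in HT29, 78.3, 79.5 and 94.1 CPM in LS513, 36.7, 35.2 and 49.0 CPM in HCT116, and 38.6, 38.2 and 37.9 CPM in LS174T. The groups of HT29 and LS513 overlapped no other group. HT29 was lower than LS513 by a log2 difference of -2.70 ± 0.23 (SE; adjusted p = 4.22e-10), that is 84.6% lower, while HCT116 and LS174T were not shown to differ (0.08 ± 0.21, adjusted p = 0.769). In 3D the log2 difference of HT29 from LS513 was -2.57 ± 0.23 (adjusted p = 6.83e-10), and 1 LS174T library (replicate 2, 113 CPM) overlapped the LS513 libraries.

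SNHG16 and SNHG1 were highest in HCT116, the line kept in another medium. SNHG16, the host of SNORD1A, SNORD1B and SNORD1C, stood at 169.7, 158 and 199 CPM in HCT116 2D, against 64.9 to 97.3 CPM over the 2D libraries of the other lines. In 2D the log2 difference of HCT116 from LS174T was 1.34 ± 0.12 (adjusted p = 6.98e-10), that of LS513 from HCT116 was -1.38 ± 0.12 (adjusted p = 3.74e-10) and that of HT29 from HCT116 was -0.96 ± 0.12 (adjusted p = 1.63e-07). SNHG1, known as the first noncoding host to be described, stood at 193, 184 and 217 CPM in HCT116 2D and at 67.7 to 130.0 CPM in the 2D libraries of the other lines. Its log2 difference of LS513 from HCT116 in 2D was -1.28 ± 0.17 (adjusted p = 6.56e-07).

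SNHG7 was higher in HCT116 than in each other line in 2D, and the log2 difference of HT29 from HCT116 was -0.85 ± 0.17 (adjusted p = 1.46e-04). The 2D means of HT29, LS513 and LS174T, 41.8, 42.0 and 42.8 CPM, were not shown to differ. SNHG6 was lowest in LS513, with 32.4 to 32.9 CPM in 2D. SNHG15 was the most even, with 2D means of 43.5 to 49.3 CPM that did not pass the test (adjusted p = 0.822). ZFAS1 (adjusted p = 0.257) and SNHG8 (adjusted p = 0.0630) also missed it in 2D, but passed without both libraries high in small nuclear RNA (adjusted p = 0.0251 and 0.00546). In 3D GAS5 missed the test between lines (adjusted p = 0.0618) and passed without those libraries (adjusted p = 0.00518). In 2D GAS5 was lower in HT29 than in LS513, with a log2 difference of -0.49 ± 0.15 (adjusted p = 0.00744). Without HT29 2D replicate 3 the test of GAS5 between lines in 2D no longer passed (adjusted p = 0.128, against 0.0320 with it).

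The study's main question was what growth in 3D changes. Averaged over the 4 lines, 6 of the 10 host genes rose in 3D (ZFAS1, SNHG5, SNHG8, GAS5, SNHG7 and SNHG6), 2 fell (SNHG12 and SNHG1), and SNHG15 and SNHG16 did not pass the test. Over all tested genes 50.5% were called in this comparison, 26.6% as higher and 23.9% as lower. The median log2 fold change, 3D over 2D, was 0.31 over the host genes and 0.04 over all tested genes. Within lines, 5 host genes rose and 2 fell in HT29, 2 rose in LS513, 2 rose and 1 fell in HCT116, and 7 rose in LS174T. Of all tested genes, HT29 had 40.7% called (21.1% higher and 19.6% lower), LS513 had 23.6% (13.7% and 9.9%), HCT116 had 29.1% (16.8% and 12.3%) and LS174T had 22.2% (13.1% and 9.15%). Out of 10, the 7 of HT29 and the 7 of LS174T were larger shares than these, and the 2 of LS513 and 3 of HCT116 were near them. The list was chosen with earlier results of these data known, so these counts cannot test for an excess. With the replicate block 4 host genes were called in HT29 against 27.9% of all tested genes. In LS174T 3 were called against 10.5% without 3D replicate 2. A fit of the LS174T libraries alone called 1 host gene against 10.3% of all tested genes. With the study's log2 cutoffs, under -0.5 or over 1.5, added to the adjusted p of 0.05, SNHG1 and SNHG12 in HT29 were called among the host genes. The study states its cutoffs with an unadjusted p, under which SNHG12 in HCT116 passed too (p = 0.0264 by edgeR's quasi-likelihood test). The rule with the adjusted p called 7.26% of all tested genes in LS174T, 17.4% in HT29, 9.28% in HCT116 and 8.03% in LS513.

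**Figure D2:**
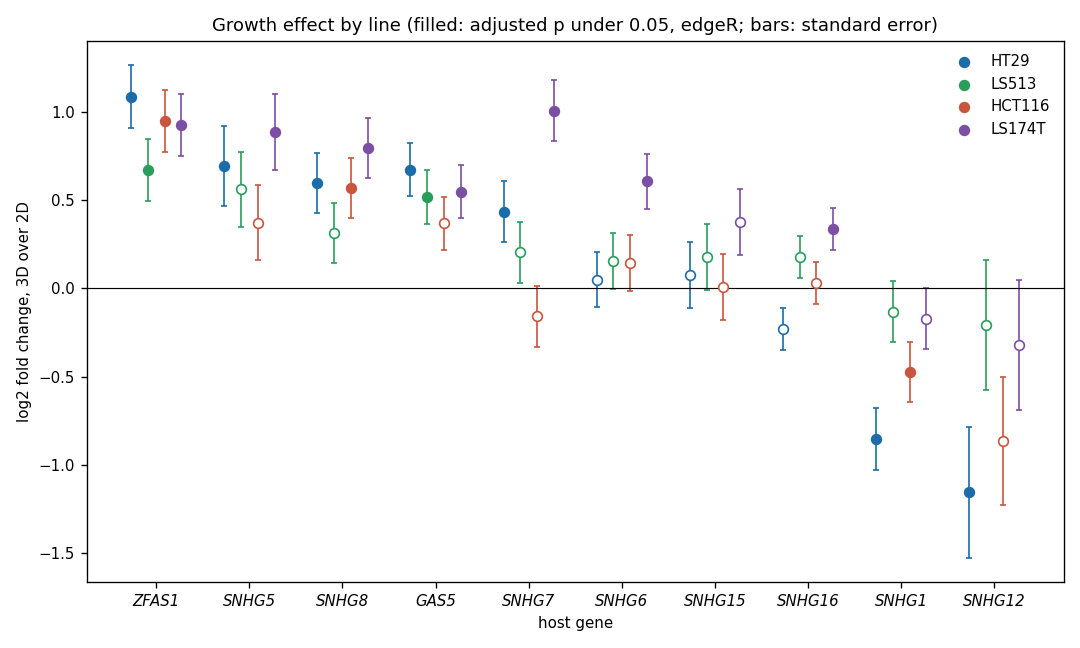
Log2 fold change, 3D over 2D, of each host gene (horizontal axis) in the 4 lines (colours), with standard error bars. Filled points passed an adjusted p of 0.05 in edgeR's quasi-likelihood test; ZFAS1 is at 0.67 or above in each line and SNHG1 and SNHG12 are below 0 in each line.

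ZFAS1, an RNA transcribed away from the start of the ZNFX1 gene (chr20:49278178-49295738, plus strand) that carries the SNORD12 snoRNAs, rose in all 4 lines. In HT29 it went from 114, 121 and 103 CPM in 2D to 248, 252 and 217 CPM in 3D, and in HCT116 from 94.5, 88.6 and 120.4 CPM to 200.1, 201 and 184 CPM. In LS513 it went from 108, 101 and 125 CPM to 182, 209.6 and 139.6 CPM, and in LS174T from 86.1, 92.5 and 90.1 CPM to 142, 244 and 125 CPM. No 3D library overlapped the 2D libraries of its line in any of the 4 lines, where among all tested genes 20.9% were so placed in LS174T, 27.3% in HT29, 22.8% in HCT116 and 23.0% in LS513. The log2 fold change was 1.08 ± 0.18 in HT29 (SE; adjusted p = 5.32e-05), 0.67 ± 0.18 in LS513 (adjusted p = 0.00766), 0.95 ± 0.18 in HCT116 (adjusted p = 3.67e-04) and 0.92 ± 0.18 in LS174T (adjusted p = 8.44e-04). Its average over the lines, 0.91 ± 0.09 (adjusted p = 2.02e-08), was the largest of the 10. The increases were not shown to differ between lines (adjusted p = 0.629), and without LS513 3D replicate 2 the call in LS513 was lost (log2 0.53, adjusted p = 0.0667).

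GAS5, named for its accumulation in cells whose growth has stopped (chr1:173863900-173868882, minus strand), rose in 3 lines. In HT29 it stood at 128, 123 and 105 CPM in 2D and at 191, 206 and 171 CPM in 3D, and in LS513 at 157, 164 and 178 CPM against 226, 285 and 206 CPM. In LS174T it stood at 135, 162 and 153 CPM in 2D and 197, 288 and 172 CPM in 3D. In HCT116, where the call was missed, the values were 136, 129 and 159.6 CPM in 2D and 204, 180.0 and 164 CPM in 3D. The 3D libraries lay above the 2D libraries in each line, although in HCT116 the gap between the nearest pair was small. The log2 fold change was 0.67 ± 0.15 in HT29 (adjusted p = 0.00116), 0.52 ± 0.15 in LS513 (adjusted p = 0.0142), 0.37 ± 0.15 in HCT116 (adjusted p = 0.0686) and 0.55 ± 0.15 in LS174T (adjusted p = 0.0125). The call in LS513 was lost without LS513 2D replicate 1 (adjusted p = 0.0622), 2D replicate 2 (0.0507) or 3D replicate 2 (0.133), and that in LS174T without LS174T 2D replicate 1 (adjusted p = 0.0650). Without both libraries high in small nuclear RNA GAS5 passed in HCT116 (0.35, adjusted p = 0.0201).

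SNHG8 (chr4:118278709-118279823, plus strand), which holds the H/ACA snoRNA SNORA24, rose in HT29, HCT116 and LS174T. It went from 37.2, 40.8 and 40.0 CPM in 2D to 55.2, 65.6 and 57.8 CPM in 3D in HT29, from 37.6, 36.2 and 52.3 CPM to 65.0, 61.5 and 60.3 CPM in HCT116, and from 37.0, 37.1 and 39.0 CPM to 52.7, 93.5 and 50.2 CPM in LS174T. The groups did not overlap, and this was also so in LS513, where 29.3 to 30.7 CPM in 2D stood against 32.4 to 42.3 CPM in 3D. The log2 fold changes were 0.60 ± 0.17 (adjusted p = 0.00721), 0.57 ± 0.17 (adjusted p = 0.0140) and 0.80 ± 0.17 (adjusted p = 0.00202) in the 3 called lines, and 0.32 ± 0.17 (adjusted p = 0.196) in LS513. The call in HCT116 was lost without HCT116 2D replicate 1 (adjusted p = 0.0776) or replicate 2 (adjusted p = 0.0841). In LS513 SNHG8 passed without both libraries high in small nuclear RNA (0.31, adjusted p = 0.0419).

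SNHG5 (chr6:85660950-85678748, minus strand) rose in HT29, from 12.1 to 13.5 CPM in 2D to 18.6 to 23.4 CPM in 3D (log2 0.69 ± 0.23, adjusted p = 0.0173). It also rose in LS174T, from 37.9 to 38.6 CPM to 52.1, 113 and 46.6 CPM (0.88 ± 0.21, adjusted p = 0.00552). In LS513 and HCT116 every 3D library again lay above every 2D library, with log2 fold changes of 0.56 ± 0.21 (adjusted p = 0.0571) and 0.37 ± 0.21 (adjusted p = 0.203). Without both libraries high in small nuclear RNA it was called in LS513 (0.56, adjusted p = 0.00131) and HCT116 (0.35, adjusted p = 0.0295) and no longer in LS174T (0.38, adjusted p = 0.0795). With the replicate block the call in HT29 was lost (adjusted p = 0.0585). The effect was not shown to differ between lines (adjusted p = 0.606).

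The library LS174T 3D replicate 2 had the highest value of its group for 9 of the 10 host genes. Without it, ZFAS1 (log2 0.58, adjusted p = 0.00631), SNHG7 (0.67, adjusted p = 9.05e-04) and SNHG8 (0.46, adjusted p = 0.0145) still rose in LS174T. GAS5 (0.31, adjusted p = 0.135), SNHG5 (0.38, adjusted p = 0.0701), SNHG6 (0.36, adjusted p = 0.0944) and SNHG16 (0.31, adjusted p = 0.122) no longer passed. That left 3 called host genes in place of 7, where all tested genes had 10.5% called in place of 22.2%. Averaged over the lines, the 6 increases and 2 decreases all passed without both libraries that were high in small nuclear RNA.

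SNHG7 (chr9:136721366-136728184, minus strand), the host of the H/ACA snoRNAs SNORA17A and SNORA17B, differed in its growth effect between lines (interaction, adjusted p = 0.00884), the only host gene of the 10 to do so, where 17.1% of all tested genes passed. In LS174T it rose from 44.1, 44.3 and 40.1 CPM to 70.0, 123 and 65.0 CPM (log2 1.01 ± 0.17, adjusted p = 2.90e-04). In HT29 it rose less, from 41.4, 39.6 and 44.3 CPM to 52.4, 63.7 and 53.2 CPM (0.44 ± 0.17, adjusted p = 0.0493). In HCT116 the 2D libraries (74.0, 60.5 and 91.5 CPM) and the 3D libraries (69.2, 63.5 and 69.8 CPM) overlapped, with a log2 fold change of -0.16 ± 0.17 (adjusted p = 0.531), and in LS513 it was 0.20 ± 0.17 (adjusted p = 0.442). The interaction passed without LS174T 3D replicate 2 as well (adjusted p = 0.00300). The call in HT29 was close to the threshold and was lost in 11 of the 24 fits that left out 1 library, among them those without HT29 2D replicate 1, 2 or 3 or HT29 3D replicate 3 (adjusted p = 0.0530 to 0.122).

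SNHG6 (chr8:66921684-66926398, minus strand), whose intron holds the C/D snoRNA SNORD87, rose in LS174T, from 47.1, 48.8 and 51.2 CPM to 62.9, 98.8 and 62.2 CPM (0.61 ± 0.16, adjusted p = 0.00853). In the other lines its log2 fold change lay between 0.05 and 0.15. SNHG16 (chr17:76557766-76565348, plus strand) rose in LS174T, from 68.4 to 71.1 CPM in 2D to 92.2, 91.9 and 78.6 CPM in 3D (0.34 ± 0.12, adjusted p = 0.0437), and gave -0.23 ± 0.12 (adjusted p = 0.128) in HT29. Its call in LS174T was lost in 12 of 32 other settings, among them the replicate block (adjusted p = 0.0794), the LS174T libraries alone (adjusted p = 0.0817) and the fits without any 1 of LS174T 2D replicates 1 to 3 or 3D replicates 1 and 2 (adjusted p = 0.0831 to 0.124). SNHG15 (chr7:44983023-44986961, minus strand), which holds SNORA9, passed in no line. Its libraries overlapped between 2D and 3D in each line, and its log2 fold change ran from 0.01 in HCT116 to 0.37 in LS174T (adjusted p = 0.150).

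SNHG1 and SNHG12 went the other way. SNHG1 (chr11:62851988-62855914, minus strand), which carries a row of C/D snoRNAs from SNORD22 to SNORD31, fell in HT29 from 108, 114 and 92.6 CPM to 51.0, 72.6 and 50.6 CPM (log2 -0.85 ± 0.17, adjusted p = 4.93e-04). In HT29 no library of one condition overlapped the other, which held for 25.6% of all tested genes counting decreases. In HCT116 it fell from 193, 184 and 217 CPM to 188, 125 and 116 CPM (-0.47 ± 0.17, adjusted p = 0.0416), where 3D replicate 1 lay among the 2D libraries. That call was lost when any 1 of the 3 HCT116 2D libraries or 3D replicate 2 or 3 was left out (adjusted p = 0.0576 to 0.145). In LS513 and LS174T the log2 fold changes were -0.13 ± 0.17 and -0.17 ± 0.17 and did not pass.

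SNHG12 (chr1:28578538-28583132, minus strand), which holds 3 H/ACA snoRNAs and SNORD99, fell in HT29 from 32.3, 32.2 and 27.1 CPM to 9.50, 21.6 and 10.1 CPM (-1.15 ± 0.37, adjusted p = 0.0166). The decrease missed the threshold without HT29 3D replicate 1 (adjusted p = 0.0919) or 3D replicate 4 (adjusted p = 0.0804). In HCT116 the 2D libraries gave 36.5, 35.5 and 40.9 CPM and the 3D libraries 35.8, 16.0 and 10.2 CPM, and the decrease missed the test (-0.86 ± 0.36, adjusted p = 0.0783). Without HCT116 3D replicate 1 it passed (-1.54, adjusted p = 0.00229). In LS513 3D the values were 10.6, 20.2 and 13.0 CPM against 15.7 to 17.5 CPM in 2D, and in LS174T 3D they were 9.99, 21.8 and 10.6 CPM against 15.9 to 20.5 CPM. In each of the 4 lines 1 spheroid library (35.8 CPM in HCT116 and 20.2 to 21.8 CPM in the others) thus stood well above the rest of its group.

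These 4 spheroid libraries had the highest level of MALAT1, a long noncoding RNA that stays in the nucleus, within their groups. In HT29 3D MALAT1 stood at 45.4 CPM in replicate 3 against 20.4 and 21.5 CPM, and in HCT116 3D at 21.8 CPM in replicate 1 against 5.03 and 4.65 CPM. In LS513 3D it stood at 20.6 CPM in replicate 2 against 9.26 and 18.1 CPM, and in LS174T 3D at 19.5 CPM in replicate 2 against 14.7 and 17.9 CPM. The sum of snoRNA genes was also highest in these 4 libraries, for example 137 CPM in HT29 3D replicate 3 against 83.4 and 84.0 CPM. NEAT1, another long noncoding RNA of the nucleus, was highest in the same library in HT29 3D (89.2 CPM against 36.2 and 40.4 CPM) and HCT116 3D (34.9 CPM against 11.7 and 13.0 CPM), but not in the other lines. In LS174T 3D replicate 2 it was the lowest of its group (29.3 CPM against 67.8 and 90.4 CPM), and in LS513 3D replicate 2 it stood at 123.3 CPM against 123.0 and 238 CPM. What part the share of nuclear RNA in a library had in the levels of SNHG12 and SNHG1 was not tested.

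**Figure D3:**
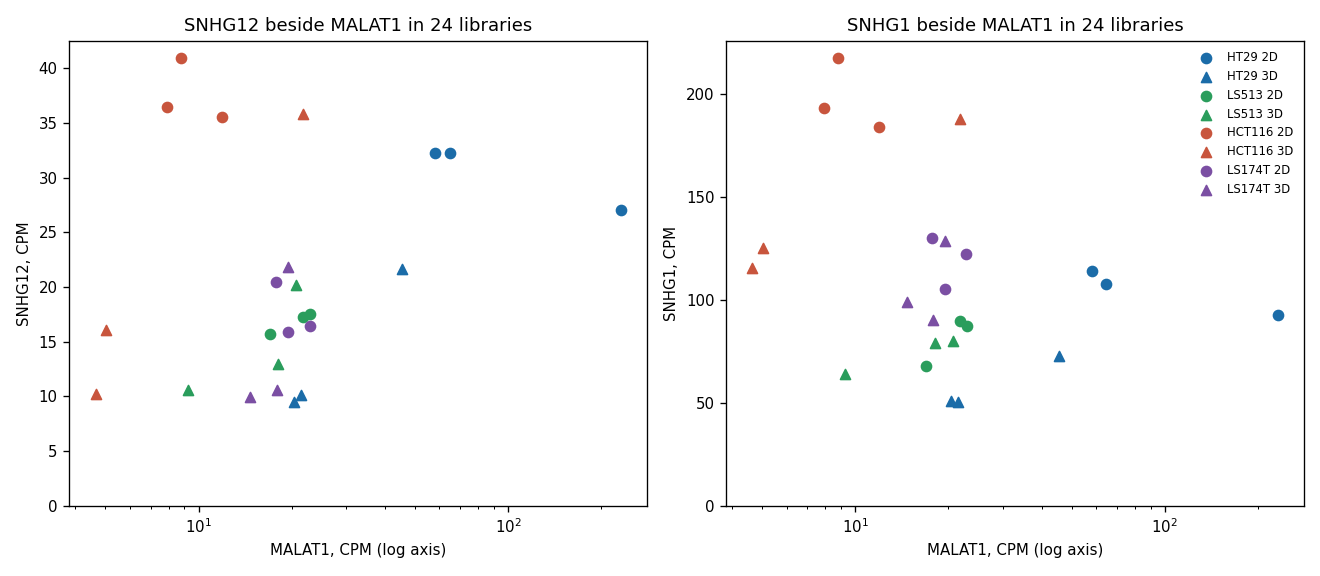
Level of SNHG12 (left) and SNHG1 (right) in CPM, vertical axes from 0, against the level of MALAT1 in CPM on a log axis in the 24 libraries. Circles are 2D and triangles 3D, colours are lines; in each line the 3D library with the highest MALAT1 also has the highest SNHG12, for example 21.6 CPM beside 45.4 CPM of MALAT1 in HT29.

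The 79 cytosolic ribosomal protein genes, with which these hosts are usually grouped by type of start, gave a positive log2 fold change in each line. All 79 were called as higher in LS174T, 72 in HT29, 60 in HCT116 and 42 in LS513, and none was called as lower. Without both libraries high in small nuclear RNA the number was 56 in LS174T, 74 in HT29, 70 in HCT116 and 75 in LS513. With all libraries their median log2 fold change was 0.76, 0.69, 0.56 and 0.48 in these lines, with a lowest single value of 0.08 in HT29. The medians without those libraries were 0.43, 0.68, 0.54 and 0.47, which made LS174T the lowest line in place of the highest. ZFAS1, GAS5, SNHG5 and SNHG8 lay inside the range of the ribosomal protein genes in each line. SNHG1, SNHG12, SNHG15 and SNHG16 lay below the lowest ribosomal protein gene in each line. The margin was small for SNHG15 in HT29 (0.077 against 0.079) and for SNHG15 and SNHG16 in LS513 (0.176 and 0.178 against 0.180). SNHG6 lay below the range in HT29 and LS513 and SNHG7 in HCT116, and both lay inside it in the other lines. Start use in these cells was not measured, and the part of the start type in these changes was not tested.

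**Figure D4:**
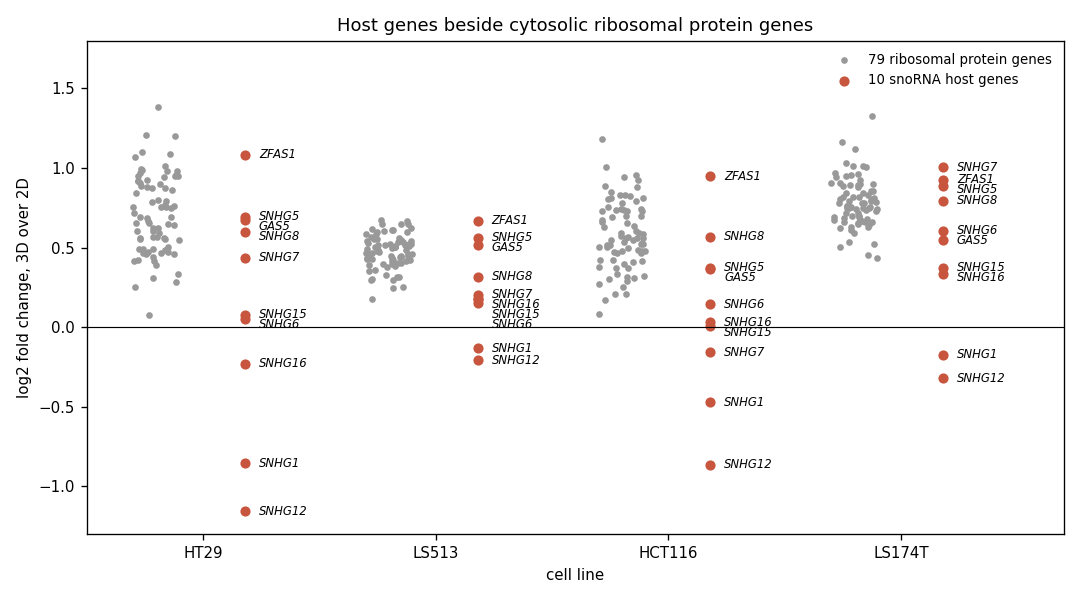
Log2 fold change, 3D over 2D, of 79 cytosolic ribosomal protein genes (grey points, spread sideways for sight) and of the 10 host genes (red, named) in each line. The ribosomal protein genes have medians of 0.69, 0.48, 0.56 and 0.76 over all libraries (0.43 in LS174T without both libraries high in small nuclear RNA). SNHG1, SNHG12, SNHG15 and SNHG16 lie below all of them in each line.

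Summed over the 10 genes, the hosts took a larger part of the library in 3D in 3 lines. Per 1000000 counts of the library total the sum ran from 594 to 644 in HT29 2D and 713 to 876 in 3D, from 667 to 695 in LS513 2D and 716 to 917 in 3D, and from 713 to 758 in LS174T 2D and 795 to 1203 in 3D. In HCT116 the ranges overlapped, 898 to 1122 in 2D and 905 to 1145 in 3D. Set against the ribosomal protein genes the hosts were lower in 3D. Per 1000 counts of ribosomal protein genes there were 10.5 to 10.9 host counts in HT29 2D and 7.63 to 8.65 in 3D, 15.2 to 15.7 and 9.54 to 13.2 in HCT116, 12.2 to 13.2 and 10.1 to 11.3 in LS174T, and 13.5 to 14.6 and 12.5 to 13.4 in LS513. The groups did not overlap in any line on this ratio, which was not tested because the genes were chosen as a set.

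Other genes of the pathway were read from lists. Of 15 other noncoding hosts 14 were tested, and averaged over lines 6 rose and 5 fell, with a median log2 fold change of 0.07. EPB41L4A-AS1, the host of SNORA13, rose by 0.89 ± 0.08 (adjusted p = 1.11e-08) and SNHG4 gave -0.76 ± 0.08 (adjusted p = 2.15e-08). Of 20 protein-coding hosts 6 rose and 11 fell (median -0.16). TPT1, a gene with a TOP start, rose by 0.84 ± 0.09 (adjusted p = 8.00e-08), and nucleolin (NCL), a protein of the nucleolus, gave -0.35 ± 0.04 (adjusted p = 1.50e-07). RPL3 and RPL23 had the smallest p of the ribosomal protein genes, with 0.72 ± 0.07 (adjusted p = 7.64e-09) and 0.75 ± 0.07 (adjusted p = 8.65e-09).

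Of 17 proteins that form snoRNA particles or assemble them, 5 rose and 10 fell (median -0.16). RPAP3 and ZNHIT6, both assembly factors, gave -0.44 ± 0.05 (adjusted p = 1.43e-07) and -0.44 ± 0.06 (adjusted p = 1.00e-06). None of 14 nonsense-mediated decay factors rose and 7 fell (median -0.14), among them UPF1, the helicase at the centre of the pathway (-0.37 ± 0.04, adjusted p = 1.59e-07), and UPF2 (-0.30 ± 0.05, adjusted p = 3.31e-05). Of 13 genes of mTOR signalling and LARP1, 5 rose and 6 fell (median -0.03). DDIT4 and DEPTOR, both known as inhibitors of mTOR, rose by 2.23 ± 0.13 (adjusted p = 1.74e-11) and 0.83 ± 0.09 (adjusted p = 1.51e-07). These counts stand against 26.6% higher and 23.9% lower over all tested genes.

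Within lines the lists moved less evenly. Of the other noncoding hosts 4 rose and 4 fell in HT29. LS513 had 3 and 2, HCT116 had 3 and 5 and LS174T had 4 and 1, and the 4 medians were 0.06, 0.08, -0.10 and 0.19. Of the protein-coding hosts 3 rose and 11 fell in HT29, while LS513 had 4 and 6, HCT116 had 5 and 8 and LS174T had 5 and 2, with medians of -0.38, -0.16, -0.18 and -0.04. The snoRNA particle proteins, which modify ribosomal RNA together with the snoRNAs, had 3 higher and 8 lower in HT29, against 0 and 6 for LS513, 2 and 7 for HCT116 and 4 and 1 for LS174T, with medians of -0.19, -0.18, -0.19 and 0.01. Of the decay factors 5, 2, 2 and 5 fell in the lines in that order and none rose, with medians of -0.20, -0.13, -0.19 and -0.03. The mTOR and LARP1 genes had 2 higher and 5 lower in HT29, against 2 and 1 for LS513, 3 and 2 for HCT116 and 2 and 3 for LS174T, with medians of -0.11, 0.02, -0.03 and 0.09. Without both libraries high in small nuclear RNA the LS174T medians of the snoRNA particle proteins and of the mTOR and LARP1 genes were -0.03 and -0.02. Those of the other noncoding hosts, the protein-coding hosts and the decay factors were 0.05, -0.06 and -0.11. On average over lines 3 particle proteins in place of 5 rose and 8 decay factors in place of 7 fell. In the same fit 0 particle proteins in place of 4 rose in LS174T, and 4 mTOR and LARP1 genes in place of 1 fell in LS513 and 5 in place of 2 in HCT116.

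How alike the host genes moved was described by Pearson's r of log2 CPM, minus the mean of the line, over the 24 libraries. The points share libraries, depth and scaling, and the difference between 2D and 3D contributes to each r, so no p is given. ZFAS1, SNHG5, SNHG8 and GAS5 formed a close set, with r from 0.91 to 0.95 between any pair. SNHG1 and SNHG12 had an r of 0.94 with each other, and SNHG1 and ZFAS1 had -0.56. Without both libraries high in small nuclear RNA the last value was -0.71 and that of SNHG1 with SNHG12 was 0.94.

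**Figure D5:**
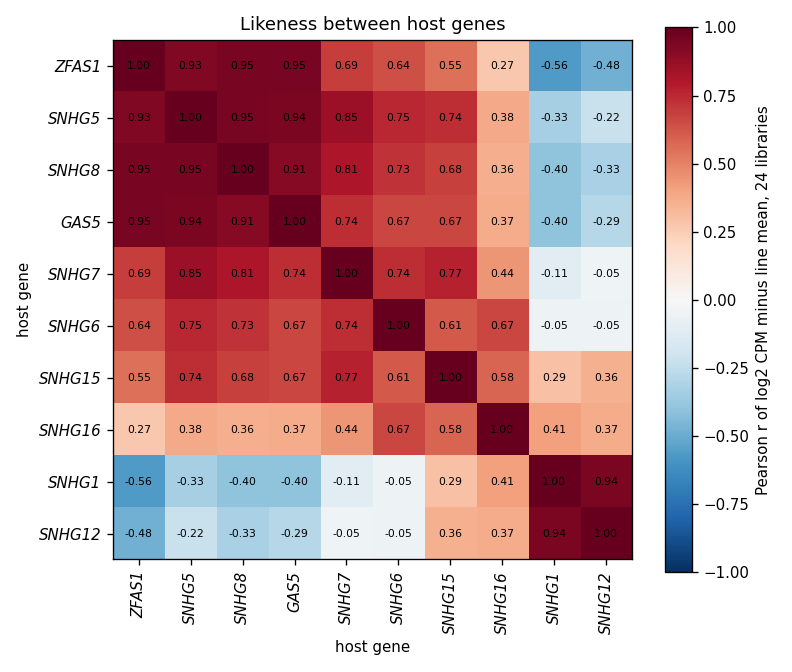
Pearson's r between host genes of log2 CPM minus the line mean over 24 libraries, from -1 (blue) to 1 (red), with the value in each cell. ZFAS1, SNHG5, SNHG8 and GAS5 share r of 0.91 to 0.95, and SNHG1 and SNHG12 share 0.94.

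The tested gene most like each host outside the set was a ribosomal protein gene for 3 of them, RPL13A for ZFAS1 (r = 0.992), RPS13 for SNHG5 (r = 0.988) and RPL30 for SNHG8 (r = 0.978). For GAS5 it was COX7C (r = 0.965), a subunit of cytochrome c oxidase, and for SNHG7 it was SNHG32 (r = 0.920), another noncoding host. SNHG12 was most like FBXL6 (r = 0.958) and SNHG1 most like CCDC84 (r = 0.937). SNHG15 was most like FASTK (r = 0.889), SNHG6 most like NOB1 (r = 0.878) and SNHG16 most like HSBP1L1 (r = 0.843). Without both libraries high in small nuclear RNA, r with the same gene was 0.802 for SNHG15 and 0.781 for SNHG6. It was 0.854 to 0.989 for the other hosts. The median r with the 79 ribosomal protein genes was 0.96 for ZFAS1, 0.95 for SNHG8, 0.95 for SNHG5 and 0.92 for GAS5. It was 0.76 for SNHG7, 0.70 for SNHG6, 0.62 for SNHG15 and 0.31 for SNHG16, and -0.47 for SNHG1 and -0.41 for SNHG12. Without the libraries high in small nuclear RNA these medians were, in the same order, 0.95, 0.94, 0.93, 0.89, 0.62, 0.50, 0.38, 0.19, -0.68 and -0.63.

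The snoRNAs themselves are short and carry no poly(A) tail, so these libraries hold only a remnant of them. Their sequences show the 2 families and which host reads they can enter. SNORD25 and SNORD27 lie in SNHG1, with box C (TGATGA) within the first 20 bases and box D (CTGA) within the last 20 bases in capitals. SNORA61 lies in SNHG12 and SNORA24 in SNHG8, with the ACA near the end in capitals. Positions and sequence are those of GRCh38.
SNORD25, chr11:62855564-62855632, minus strand: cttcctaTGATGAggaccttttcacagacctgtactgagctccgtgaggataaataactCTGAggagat
SNORD27, chr11:62855012-62855083, minus strand: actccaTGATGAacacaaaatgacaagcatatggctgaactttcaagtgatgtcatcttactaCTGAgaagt
SNORA61, chr1:28579764-28579893, minus strand: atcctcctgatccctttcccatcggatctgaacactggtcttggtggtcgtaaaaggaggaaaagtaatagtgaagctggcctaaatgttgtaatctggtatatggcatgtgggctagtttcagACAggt
SNORA24, chr4:118279190-118279320, plus strand: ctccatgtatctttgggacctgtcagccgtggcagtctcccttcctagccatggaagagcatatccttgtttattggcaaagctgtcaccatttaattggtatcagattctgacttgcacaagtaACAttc

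Both boxes were found in these windows in 22.5% of 992 annotated snoRNA and scaRNA genes. GENCODE 29 places 26 snoRNA entries (23 loci) inside 9 of the hosts and none inside GAS5, for which RefSeq lists 11. Of the 26, 23 passed the filter on low counts. In HT29 18 of these 23 entries fell in 3D and none rose, with a median log2 fold change of -1.76. In HCT116 11 fell (median -1.05), in LS174T 1 fell (median -0.55) and in LS513 none fell and SNORD12C rose (median -0.13). Of all tested genes 19.6% fell in HT29, 12.3% in HCT116, 9.15% in LS174T and 9.9% in LS513. The entries named SNORA17B, those named SNORA16A, and SNORA17A with RF00560 overlap and share reads, so the entries called exceed the separate loci called. SNORD12 and SNORD12B of ZFAS1, SNORD50B of SNHG5 and SNORA24 of SNHG8 fell in HT29, where their hosts rose. SNORA24 had 17, 20 and 65 counts in HT29 2D and 5, 14 and 5 in 3D. SNORD50B had 7, 13 and 4 counts in HT29 2D and 3, 2 and 0 in 3D. SNORD12B averaged 0.622 CPM in HT29 2D and 0.0863 CPM in 3D, the latter below the limit of detection. These calls thus rest on few reads. Without HT29 2D replicate 3 and LS174T 3D replicate 2, 13 of the 23 fell in HT29 (median -1.65), among them SNORD12 (-1.40, adjusted p = 0.0114), SNORD12B (-2.14, adjusted p = 0.0289) and SNORD50B (-2.52, adjusted p = 0.00620), while SNORA24 missed the threshold (-1.20, adjusted p = 0.0968).

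SNORD25 was the most abundant of the 26 in HCT116, with 6.72 ± 1.09 CPM in 2D and 7.04 ± 0.53 CPM in 3D, against group means of 0.60 to 1.44 CPM in the other lines. Its growth effect in HCT116 was 0.07 (adjusted p = 0.856), while 4 other snoRNA genes of SNHG1 fell there. Of the 26 entries 22 share bases with annotated exons of their host. A read on both was counted for each, as shown by SNORA17A and its overlapping entry RF00560, which had equal counts in 24 of 24 libraries. Such reads made up 8.20 to 19.7% of the counts of SNHG12 and 3.73 to 10.8% of those of SNHG1. They made up at most 9.02% of the counts of any other host that holds some of the 26 entries. Subtracting them from the counts of these hosts changed no call of a host gene. GAS5 holds none of the 26 entries, so its share of snoRNA reads was not measured and nothing was subtracted from its counts.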

How the data were processed

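RNA of 4 lines (HT29, LS513, HCT116, LS174T), each in both growth conditions, was measured in 24 poly(A)-selected, stranded libraries (75-bp single reads). Per the labels and the study's methods, the authors used bcl2fastq 2.18.0.12, Trim Galore 0.4.1, STAR and HTSeq 0.5.3 and deposited raw counts of uniquely aligned reads per gene, in 191 files. The labels name hg19, while the methods name Ensembl 91, an annotation of GRCh38. The files hold no coordinates, and 57980 of 58243 identifiers matched GENCODE 29, from which positions on GRCh38 were taken. Each library was run as 8 technical replicates, which differed by no more than counting error (median chi-square per degree of freedom 0.907 to 0.933), and these counts were summed. For HT29 3D replicate 4, 7 were used and 1 is not analysed here.

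Genes were filtered by filterByExpr, scaled by TMM and tested by edgeR's quasi-likelihood test (edgeR 4.0.16, R 4.3.3) over all 8 groups together, without a replicate block, with Benjamini-Hochberg adjustment over 19387 genes and a threshold of 0.05. No pseudocount enters the test, and log2 CPM for the likeness of genes used a prior count of 1. RPKM divides CPM by the annotated exon length. In the self-test on simulated counts for the HT29 comparison, 164 of 200 changed genes were recovered with 9 false calls among 18228 genes. Changes as small as that of SNHG7 in HT29 were not planted, nor were changes in genes with few counts. The recovery of such changes was not tested. A single-value permutation test of 3 against 3 libraries cannot go below p = 0.1 and was not used. The members and lists were chosen with earlier results of these data known. All 10 members are named, and for each other list the text names the 2 genes with the smallest p for the average over lines. The gene most like a member was the tested gene with the highest Pearson's r outside the members and outside the member's own span. Alternatives were DESeq2 1.42.0, its size factors in edgeR, all genes with at least 1 count, the replicate block, leaving out technical replicate d, leaving out each library, the 6 libraries of a line alone and the study's log2 cutoffs of -0.5 and 1.5 together with the adjusted p. Fits without the libraries over 50 CPM of snRNA and with snoRNA reads subtracted were added after seeing the data. Sequences are from RefSeq (GRCh38.p14) and the reference genome.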

Additional observations from a re-analysis of the deposited data

Results flagged for a closer look

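The growth effect of SNHG7 differed between the 4 lines by a test of the difference itself (edgeR's quasi-likelihood test of the interaction, adjusted p = 0.00884). Its log2 fold change, 3D over 2D, was 1.01 in LS174T, 0.44 in HT29, 0.20 in LS513 and -0.16 in HCT116, and 17.1% of all tested genes passed the same test.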

How the results depend on the processing

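Of 2500 refitted values of 80 gene results, 2362 kept their direction and side of the threshold, 69 lost a call, 69 gained one and none reversed. The average over lines called 8 host genes in every fit that left out 1 library. The number called in HT29 was 4 with the replicate block in place of 7 (27.9% of all tested genes called, in place of 40.7%). With the study's log2 cutoffs added to the adjusted p it was 2, and LS513, HCT116 and LS174T had 0; at an unadjusted p SNHG12 in HCT116 passed them too. Deviations of same-numbered libraries correlated by -0.126 to 0.0773, and the block changed 6 of 60 gene calls. With 3 libraries per group these correlations cannot tell whether same-numbered cultures were handled together. In fits of 1 line alone LS513 had 4 called genes in place of 2 (37.0% of all tested genes) and LS174T 1 in place of 7 (10.3%). With all genes with at least 1 count, HCT116 had 6 in place of 3 (15.4%) and the interaction 3 in place of 1 (10.4%). Without both libraries high in snRNA, LS513 had 4 (28.5%), HCT116 5 (34.6%) and LS174T 3 (10.5%). The host share in LS174T 2D was 662 per 1000000 of the TMM library size in place of 731. The cause of these shifts was not tested.

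Leaving out 1 library gave 6 to 7 called genes in HT29, 0 to 4 in LS513, 1 to 5 in HCT116, 3 to 8 in LS174T, 1 to 3 for the interaction, and 6 to 9 between lines in 2D and in 3D. LS513 had 1 without its 2D replicate 1 or 2, 0 without its 3D replicate 2 and 4 without LS174T 3D replicate 2. HCT116 had 1 without its 2D replicate 1 or 2 and 5 without LS174T 3D replicate 2, and LS174T had 3 without its 3D replicate 2. The interaction called 2 genes without HT29 3D replicate 3 or LS174T 3D replicate 3 and 3 without HCT116 3D replicate 1. Poly(A) selection limits what the snoRNA counts can show.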
